A study of Mus musculus with 6 samples.

Results

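The mouse Toll-like receptor genes Tlr1 to Tlr9 and the adaptor gene Myd88 were followed through the withdrawal of miR-155 from tumours that overexpress it. They were taken by symbol from the table of the study's comparison, and all 10 were found among its 29209 genes and transcripts. RNA was sequenced from 6 subcutaneous tumour samples. In every sample the host was an NCr nude mouse, an athymic strain poor in T cells that keeps its myeloid cells, and the tumour grew from injected spleen cells of diseased mir-155LSLtTA mice. The 3 DOX samples came from hosts fed chow with doxycycline (2.3 mg per kg) during the last 16 hours, which turns the miR-155 transgene off. The 3 no DOX samples came from hosts with no treatment. The age of the mice and the driver of the transgene in these cells are not given in the sources used here, and since a transgene-free tumour on DOX was not among the groups, effects of the drug and of miR-155 loss cannot be told apart.

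Toll-like receptors are the sentinels of innate immunity. Those on the cell surface bind parts of bacterial walls and flagella, and those in endosomes bind nucleic acids. Their cytoplasmic TIR domains recruit adaptor proteins. MyD88 serves every one of them except TLR3, assembling IRAK kinases and TRAF6 into a complex that activates NF-kB, MAP kinases and IRF factors. Macrophages, neutrophils and dendritic cells carry most of these receptors, and B cells carry some of them. miR-155 is itself induced by Toll-like receptor signals in macrophages, and several proteins of the pathway have been reported as its targets.

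The authors' deposited table gives 1 ratio per gene, a p-value and an adjusted p-value. It holds no value for a single sample and no group mean, so neither the level of a receptor nor the depth or spread of the samples can be shown, and the labelled tissue could not be checked against the level of its markers. The ratio was read as DOX over no DOX. The table does not state this order, and every direction below turns if it is the other way. As a rough error for each log2 fold, an implied standard error was computed as the absolute log2 fold divided by the normal quantile of its unadjusted p. Whether samples of 1 group are separate animals is not in the labels, so the p-values speak of the spread among these 3 and 3 samples alone, and that spread may be technical.

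None of the 10 genes passed an adjusted p of 0.05 in the authors' deposited table, with 0 higher and 0 lower. Of all 18543 genes with an adjusted p, 11.3% passed, 5.72% higher and 5.61% lower with DOX. At an unadjusted p under 0.05 the authors' deposited table had 4 of the 10 higher, Tlr8, Tlr1, Tlr4 and Tlr7, and 0 lower, beside 11.9% of all genes higher and 10.4% lower, 22.4% in all. At an adjusted p under 0.1 it had 3 higher, Tlr8, Tlr1 and Tlr4, and 0 lower, beside 7.74% of all genes higher and 7.35% lower, 15.1% in all. The authors' p-values come from DESeq, per the submitters' processing notes. Of the 10 genes, 8 had a ratio above 1, and so did 55.9% of the 15784 tested genes with a finite ratio. Their median log2 fold was 1.37, against 0.17 over those 15784 genes. The exceptions, with ratios under 1, were Tlr9 and Myd88.

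**Figure D1:**
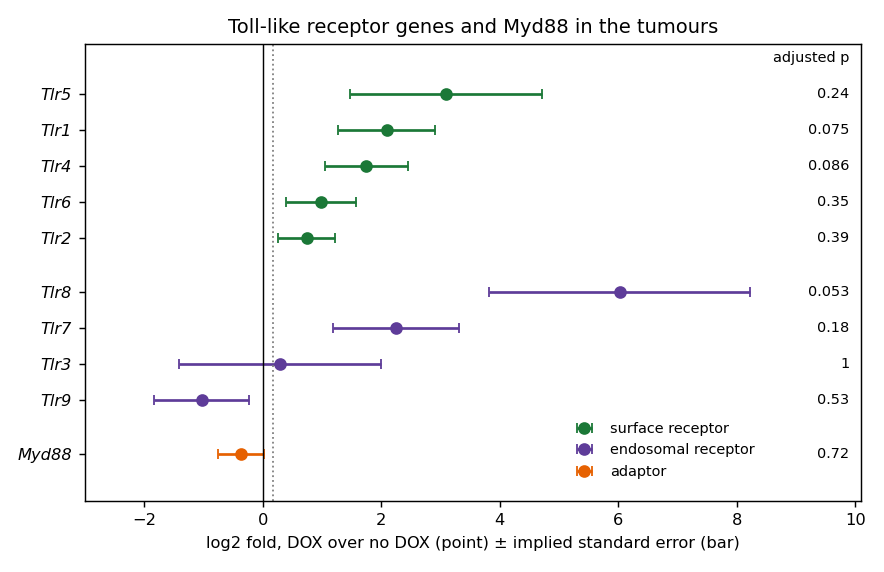
Log2 fold of DOX over no DOX for each gene (points) with the implied standard error (bars), grouped as surface receptors, endosomal receptors and the adaptor, with the adjusted p of the authors' deposited table at the right and the median of all tested genes as a dotted line. All 5 surface receptors lie above 0, Tlr8 lies farthest right at 6.03 with the widest bar, and Tlr9 (-1.03) and Myd88 (-0.36) lie below 0.

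The surface receptors all had ratios above 1, from 1.67 to 8.56, and the authors' deposited table puts their median log2 fold at 1.75. Tlr4, the receptor for bacterial lipopolysaccharide, had, by the authors' deposited table, a ratio of 3.36, a log2 fold of 1.75 with an implied standard error of 0.70 and an adjusted p of 0.0864. Tlr2, which pairs with TLR1 or TLR6 to bind bacterial lipopeptides, had a ratio of 1.67 (log2 fold 0.74, implied standard error 0.47, adjusted p = 0.390 in the authors' deposited table). The partners of TLR2 both had ratios above 1, and whether they differ from each other was not tested. Tlr1, whose pair with TLR2 binds triacylated lipopeptides, had a ratio of 4.27 (log2 fold 2.09, implied standard error 0.81, adjusted p = 0.0753 in the authors' deposited table). Tlr6, whose pair binds diacylated lipopeptides, had one of 1.98 (0.99, 0.60, adjusted p = 0.346 in the authors' deposited table). Tlr5, the flagellin receptor, had the largest surface ratio, 8.56, and also the widest error of these 5 (log2 fold 3.10, implied standard error 1.62, adjusted p = 0.239 in the authors' deposited table).

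Tlr1 and Tlr6 are neighbouring genes of closely similar sequence. In the annotated coding transcripts, 14.8% of the 50-base windows of Tlr1 (454 of 3071) stand identically in Tlr6, which makes 12.3% of the windows of Tlr6. No other pair of the 10 genes shared a window of 50 or of 36 bases. The division of reads between Tlr1 and Tlr6 is therefore uncertain over that stretch. The sources used here do not give the read length.

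Endosomal receptors spanned the range from the highest log2 fold of the 10 genes to the lowest. Tlr8, a receptor for RNA degradation products, had a ratio of 65.2, or a log2 fold of 6.03 with an implied standard error of 2.20, and an adjusted p of 0.0531 in the authors' deposited table. Only 4 of the 15784 genes with a finite ratio had a larger one, and 1 of those 4 passed the threshold. Tlr7, the receptor for single-stranded RNA that lies beside Tlr8 on the X chromosome, had a ratio of 4.75 (log2 fold 2.25, implied standard error 1.06, adjusted p = 0.176 in the authors' deposited table). Tlr9, which detects unmethylated CpG DNA, was the one receptor with a ratio under 1, at 0.490 (log2 fold -1.03, implied standard error 0.80, adjusted p = 0.526 in the authors' deposited table). Tlr3, the sensor of double-stranded RNA that signals through the adaptor TRIF and not through MyD88, had the largest p-value, with a log2 fold of 0.29, an implied standard error of 1.70 and an adjusted p of 1 in the authors' deposited table. No change of Tlr3 in either direction was detectable, and its 95% range from the implied error ran from -3.04 to 3.62.

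Myd88 had the smallest error of the 10 genes. Its ratio was 0.778, a log2 fold of -0.36 with an implied standard error of 0.38 and an adjusted p of 0.724 in the authors' deposited table. The 95% range from that error ran from -1.12 to 0.39. No difference of Myd88 was detectable. No receptor passed the threshold either. The same range is not adjusted for the number of genes. It restates the unadjusted p from which its error was computed, and leaves out 0 wherever that p is under 0.05. So it lay above 0 for the genes already named at that unadjusted p. These were Tlr8 (1.71 to 10.3), Tlr1 (0.50 to 3.69), Tlr4 (0.38 to 3.11) and Tlr7 (0.16 to 4.33). For Tlr2, Tlr3, Tlr5, Tlr6 and Tlr9 it held 0. Whether the fold of Myd88 differs from those of the receptors was not tested.

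Ordered by log2 fold, the genes ran Tlr8, Tlr5, Tlr7, Tlr1, Tlr4, Tlr6, Tlr2, Tlr3, Myd88 and Tlr9. In all 9 neighbouring pairs of that order the ranges of 1 implied standard error overlapped, so the order between neighbours is not resolved. Of the 10 genes, 7 had an implied standard error above the median of 0.61 over the 13930 genes for which one could be computed. At a given p this error grows with the fold by its definition, so that count is no measure of noise. A gene needed a log2 fold of 2.77 times its implied standard error to pass. Since that error comes from the gene's own p, the multiple restates the p-value and measures no limit of detection. The product was 1.06 for Myd88 and 1.31 for Tlr2. It was 4.47 for Tlr5 and 6.09 for Tlr8, just above the 6.03 that Tlr8 had in the authors' deposited table.

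**Figure D2:**
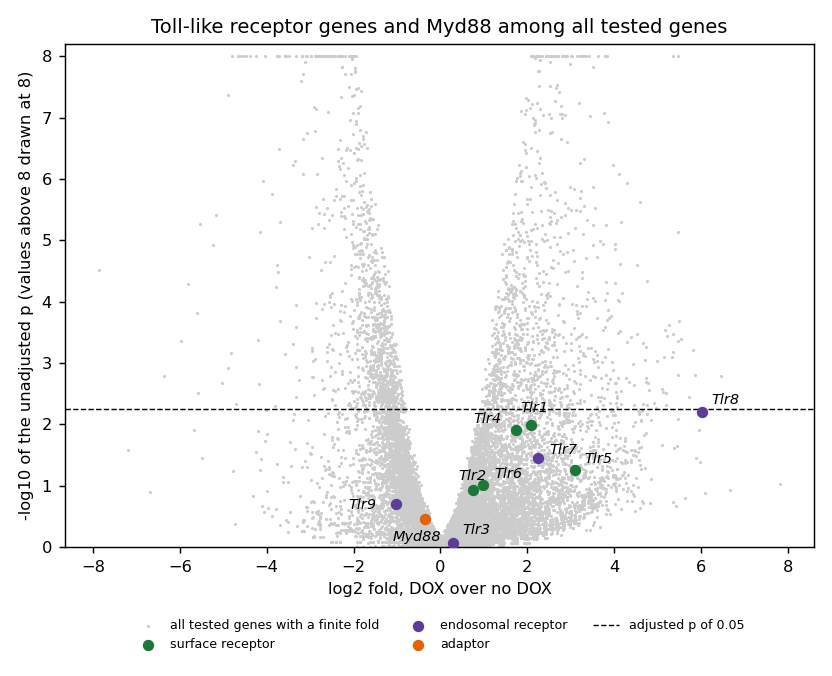
Unadjusted p (as -log10, values above 8 drawn at 8) against log2 fold of DOX over no DOX for all tested genes with a finite ratio (grey) and for the receptors and Myd88 (coloured), with a dashed line where the adjusted p reaches 0.05. All 10 coloured points lie below the line, and Tlr8 lies closest to it at a log2 fold of 6.03.

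Since miR-155 was the microRNA withdrawn, the 3' UTRs of these genes were searched for its seed match. The mature strand of mouse miR-155-5p is shown from RefSeq (GRCm38.p6, chr16:84714143-84714165, plus strand) with its seed, bases 2 to 8, in capitals.
mmu-miR-155-5p: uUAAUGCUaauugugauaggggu
The matching 7-mers are AGCATTA, opposite the seed, and GCATTAA, which ends in an A opposite base 1. Neither stood in the longest annotated 3' UTR of any of the 10 genes, on the strand of the transcript, in GENCODE M21. Of 11761 tested genes matched by symbol that have an annotated 3' UTR, 13.2% hold one. These 10 have short 3' UTRs, with a median of 348.5 bases against 1133, from 58 bases in Tlr8 to 1496 in Tlr3. Myd88, which has been reported as a miR-155 target, has 987 bases and no such match.

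Further along the pathway, 6 other genes have been reported as miR-155 targets, and 5 of them hold 1 match each. The sites are shown with up to 11 bases on each side and the match in capitals, in GRCm38 coordinates from GENCODE M21, since the receptors hold no such site.
Tab2 (chr10:7906680-7906709, minus strand): ataaggtagaaAGCATTAAtgaaatgaaac
Socs1 (chr16:10784195-10784224, minus strand): cgctgtgccgcAGCATTAAgtgggggcgcc
Inpp5d (chr1:87719827-87719856, plus strand): tgtttttaaaaAGCATTAAagaaaaccatc
Ikbke (chr1:131255142-131255170, minus strand): gccaacaaactAGCATTActttgactgtc
Ripk1 (chr13:34036472-34036500, plus strand): tgttttcatatAGCATTAggaagctaagc
In Tab2, Socs1 and Inpp5d the 7-mers join into an 8-base match. Fadd, the other one, has none in 3211 bases of 3' UTR. None of these 7 reported targets, Myd88 included, passed the threshold in the authors' deposited table, nor did any reach an unadjusted p of 0.05, in 0 cases higher and 0 lower. Over all genes with an adjusted p, 11.3% passed and 22.4% reached that unadjusted p. The log2 folds of these 7 spanned -0.56 to 0.51, with a median of 0.10 against 0.17 for all genes in the authors' deposited table. Tab2, the TAK1-binding adaptor listed as Map3k7ip2, had the smallest p among them, with a log2 fold of 0.46 (adjusted p = 0.529 in the authors' deposited table). No difference of these genes was detectable, with or without a seed match.

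The promoters were read for 3 motifs on both strands, to show what sequence these genes share before their start sites. The motifs were GAGGAA, the core bound by the myeloid and B cell factor PU.1, the IRF pair, GAAA followed by GAAA after 2 free bases, and a kB site of the NF-kB factors, GGGA followed by CC after 4 free bases. RefSeq windows of 300 bases (GRCm38.p6, 250 before a start site and 50 from it on) were at hand for 8 of the 10 genes, in 10 windows, without Tlr4 and Tlr7. GAGGAA stood in 3 of the 10 windows, those of Tlr8, Tlr1 and Tlr9, and in 28.3% of all 32851 such windows. The IRF pair stood in 2 of the 10, of Tlr6 and Myd88, and in 3.44% of all windows. The kB site stood in 3 of the 10, of Tlr2, Tlr3 and Tlr5, and in 20.7%. Tlr1 and Tlr6 each have a further window that holds none of the 3 motifs. No match of one motif overlapped a match of another in these genes. Stretches of 30 bases before the start site are shown, written along the gene, with the match in capitals (TTCCTC in Tlr8 is GAGGAA on the other strand, and the capitals in Tlr6 are overlapping IRF pairs on the other strand).
Tlr8 (chrX:167264389-167264418, minus strand): tataaatgacttTTCCTCtgaattcagttt
Tlr1 (chr5:64933564-64933593, minus strand): aattaaatgttgGAGGAAgtaggagcttga
Tlr9 (chr9:106222474-106222503, plus strand): ggagagtggaaaGAGGAAggggttgagggg
Tlr6 (chr5:64959260-64959289, minus strand): ctattctTTTCTCTTTCACTTTCtgtttga
Myd88 (chr9:119340039-119340068, minus strand): gagcttctcgGAAAGCGAAAgaaggagggg
Tlr2 (chr3:83841761-83841790, minus strand): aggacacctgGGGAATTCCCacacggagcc
A match is a run of letters and not a measured site.

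The other mouse Toll-like receptors, all endosomal, resembled the larger receptor ratios in size and in error. Tlr13, which detects bacterial ribosomal RNA, had a log2 fold of 3.06 (implied standard error 1.61, adjusted p = 0.245 in the authors' deposited table). Tlr12, a sensor of protozoan profilin, had 2.89 (1.56, adjusted p = 0.263 in the authors' deposited table). For Tlr11, its partner in that role, the ratio is listed as Inf in the authors' deposited table (adjusted p = 0.814), and no fold is given. Of these 3 genes 0 passed in the authors' deposited table, and 0 reached an unadjusted p of 0.05. The shares over all genes with an adjusted p were 11.3% and 22.4%.

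Over all genes with an adjusted p, 5.72% rose and 5.61% fell, and 11.9% were higher and 10.4% lower at an unadjusted p under 0.05. Whether the counts of the short lists below differ from those shares was not tested. Among 6 co-receptor and ligand delivery genes the authors' deposited table has 0 past the threshold, and 1 higher and 1 lower at an unadjusted p under 0.05. Cd14, which hands lipopolysaccharide to TLR4 and is a marker of monocytes, had the largest log2 fold, 4.75 (adjusted p = 0.0568 in the authors' deposited table). Cd180, a relative of TLR4 found on B cells, had -1.12 (adjusted p = 0.187 in the authors' deposited table). Among 8 tested genes for receptor chaperones and endosomal processing, 1 rose and 0 fell. It was Lgmn, a lysosomal protease that can cleave TLR9, with a log2 fold of 1.27 (adjusted p = 0.0179 in the authors' deposited table). Cathepsins of the same compartment followed, Ctsb at 0.98 (adjusted p = 0.0904) and Ctsl at 3.51 (0.120) in the authors' deposited table. Unc93b1, the carrier of endosomal receptors out of the endoplasmic reticulum, named here after its value was seen, had 0.87 (adjusted p = 0.292 in the authors' deposited table).

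The other TIR adaptors, like Myd88, gave no call: the authors' deposited table has 0 of 5 past the threshold, 0 reached an unadjusted p of 0.05, and the median log2 fold was -0.19. The smallest p-values belonged to Pik3ap1, which couples the receptors to PI3K (-0.59, adjusted p = 0.396), and to Ticam2, the bridging adaptor of TLR4 (-0.60, 0.689), in the authors' deposited table. In the MyD88 kinase and ubiquitin arm 1 of 12 genes rose and 0 fell, beside 5.72% and 5.61% of all genes. That gene was Peli1, an E3 ligase acting on IRAK proteins, at 1.24 (adjusted p = 0.0184 in the authors' deposited table). Tab3, a subunit of the TAK1 kinase complex listed as Map3k7ip3, had 1.48 at an adjusted p of 0.0502, and the kinase gene Irak1 had -1.12 at 0.0823 in the authors' deposited table. In the TRIF arm, which serves TLR3 and TLR4, 0 of 10 rose and 1 fell. Ripk3, the kinase of necroptosis, fell by 1.93 on the log2 scale (adjusted p = 0.00998 in the authors' deposited table). Azi2 (1.23, adjusted p = 0.0700) and Tank (1.32, 0.105), scaffolds of the kinase TBK1, came next in the authors' deposited table.

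Farther downstream, 2 of 12 genes of the IKK complex and NF-kB factors rose and 0 fell, with a median of 0.81 in the authors' deposited table. The shares over all genes were 5.72% and 5.61%, for this list and those that follow. Nfkb2, the p100 precursor of the non-canonical branch, rose by 1.50 (adjusted p = 0.0117), and Nfkbiz, an atypical IkB protein, by 1.38 (0.0251) in the authors' deposited table. Below the threshold, Nfkbie (0.90, adjusted p = 0.0888) and Relb (1.75, 0.169) had the next p-values in the authors' deposited table. Of 11 MAP kinase and AP-1 genes 1 rose and 1 fell. Jun rose by 2.06 (adjusted p = 0.0147), and Map2k3, a kinase that activates p38, fell by 1.11 (0.0481) in the authors' deposited table. The p38 gene Mapk14 (-0.83, adjusted p = 0.134) and the JNK gene Mapk8 (1.96, 0.166), both short of the threshold, came next in the authors' deposited table. Of 4 IRF genes 0 passed and 0 reached an unadjusted p of 0.05, with Irf7 at 2.48 (adjusted p = 0.326) and Irf1 at 0.55 (0.412) in the authors' deposited table. Of 12 inhibitors 1 rose and 0 fell. It was Tnfaip3, the gene of the ubiquitin-editing enzyme A20, at 1.91 (adjusted p = 0.0294 in the authors' deposited table). The deubiquitinase gene Cyld (0.85, adjusted p = 0.160) and Il1rl1 (-1.86, 0.449) followed in the authors' deposited table.

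Among the cytokines and effectors that these receptors induce, 1 of 20 tested genes rose and 1 fell. Il12a, a subunit of interleukin 12, rose by 3.20 (adjusted p = 0.0175), and Tnf fell by 3.82 (0.0454) in the authors' deposited table. Il1b, the gene of interleukin 1 beta, had 5.90 (adjusted p = 0.178), and the ratio of the co-stimulatory receptor gene Cd40 is listed as Inf (0.0772) in the authors' deposited table. The median over the 13 with a finite ratio was 3.20, with 6 more listed as Inf and 1 at 0. Across all pathway lists, those of the interleukin 1 receptor family and the cytosolic sensors included, each gene counted once and without the 10 genes above, 8 of 122 tested genes rose and 3 fell. That is 6.56% and 2.46%, beside 5.72% and 5.61% of all genes.

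**Figure D3:**
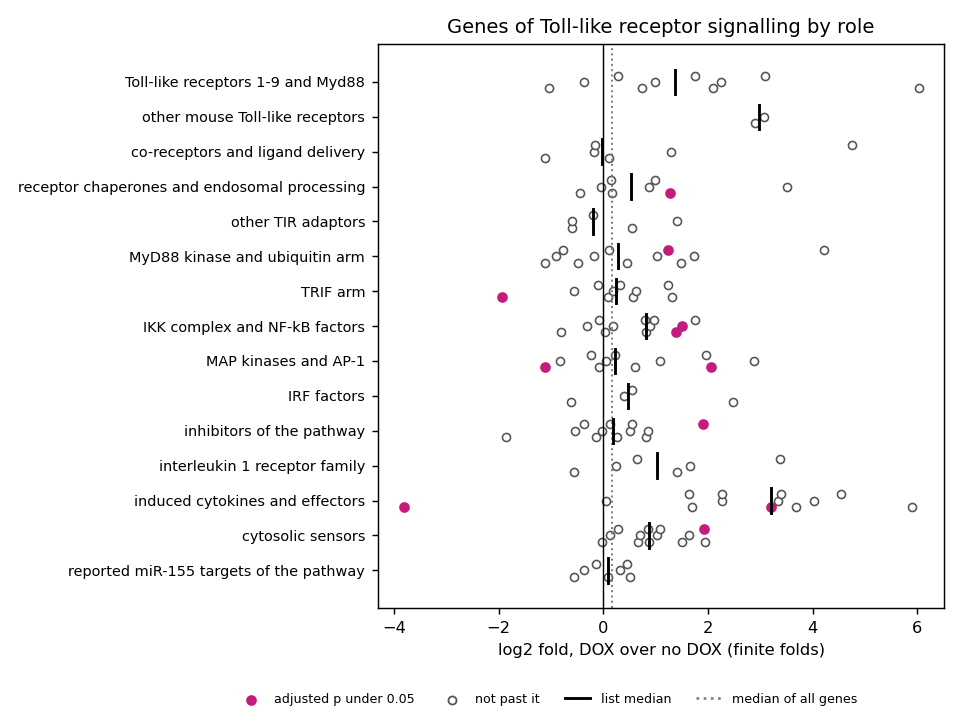
Log2 fold of DOX over no DOX for the genes of Toll-like receptor signalling with a finite ratio, by role (filled: adjusted p under 0.05 in the authors' deposited table, open: not past it, bar: list median, dotted line: median of all genes). No filled point stands in the rows of the receptors, the other mouse Toll-like receptors, the co-receptors or the other adaptors. The same holds for the IRF factors, the interleukin 1 receptor family and the reported miR-155 targets. The median of the induced cytokines lies farthest right, at 3.20.

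Markers of the cells that carry these receptors gave the following values beside them. Of all genes with an adjusted p, 5.72% rose and 5.61% fell, and 55.9% of the finite ratios were above 1. The lists are short, and whether their counts differ from those shares was not tested. All 11 macrophage markers reported here had a ratio above 1, 2 of them passed (Csf1r and Mertk), and their median log2 fold was 2.16 in the authors' deposited table. Of 6 tested neutrophil markers 5 had a ratio above 1 and 2 rose, Csf3r and Cxcr2 (listed as Il8rb), and the median of the 4 with a finite ratio was 4.90 in the authors' deposited table. Dendritic cell and B lineage markers were mixed in direction. Of 8 dendritic cell markers 6 had a ratio above 1 and 2 rose, Siglech and Tcf4, with a median of 1.53, while Bst2 had -0.86 (adjusted p = 0.212 in the authors' deposited table). Among 8 B lineage markers 5 had a ratio above 1 and 2 rose, Ebf1 and Blnk, with a median of 0.49, while Ms4a1 had -4.12 (adjusted p = 0.183 in the authors' deposited table). Bst2 and Ms4a1, named after their values were seen, were the markers of these lists lower at an unadjusted p under 0.05. All 8 fibroblast markers, of cells that carry fewer of these receptors, also had a ratio above 1. Of these, 2 rose (Pdgfra and Postn), with a median of 2.10 in the authors' deposited table. Of 6 endothelial markers 5 had a ratio above 1 and 1 fell (Eng), with a median of 1.28 in the authors' deposited table. None of 5 tested T cell, 5 NK cell and 2 tested erythroid markers passed, with medians of 0.82, 2.50 and 2.59, by the authors' deposited table. Ratios above 1 stood in 3, 4 and 2 of these, in that order. By the authors' deposited table, 1 T cell marker reached an unadjusted p of 0.05. The summed level of a marker list in each group could not be had from ratios. The part of these cells in the receptors' ratios was not tested, and in bulk RNA of dispersed tumours, from which red blood cells had been lysed, more cells of a type cannot be told apart from more RNA per cell.

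**Figure D4:**
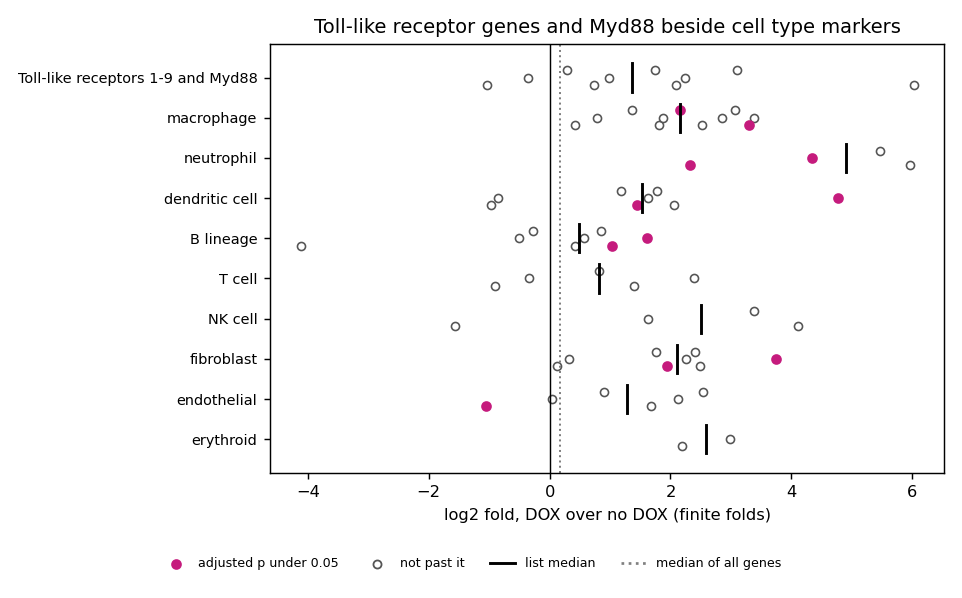
Log2 fold of DOX over no DOX for the receptors with Myd88 and for markers of 9 cell types, finite ratios only (filled: adjusted p under 0.05 in the authors' deposited table, open: not past it, bar: list median, dotted line: median of all genes). Every macrophage, neutrophil, fibroblast and erythroid marker shown lies right of 0. The median of neutrophil markers lies farthest right at 4.90, and that of B lineage markers is the closest to 0 at 0.49.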

How the data were processed

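Per the labels' protocols, tumours were dispersed into single cells, red blood cells were removed by lysis, and ribosomal RNA was depleted from the total RNA before sequencing. Per the submitters' processing notes, the authors used RSEM, DESeq and the mouse build mm9, with no versions given. The deposited table holds the authors' linear ratio (fold change), and the deposited p-values stand beside it, unadjusted and adjusted. It has 0 columns of values per sample, so no test across samples was run and depth is unknown. Benjamini-Hochberg adjustment of the unadjusted p-values over 18543 genes gave the deposited adjusted ones to within 2.09e-06.

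Log2 folds, counts and implied standard errors (for p up to 0.9) were computed with Python 3.11.15, numpy 2.4.6, pandas 2.3.3 and scipy 1.17.1, and the code was checked on simulated data. Genes were called at an adjusted p under 0.05. The 10 genes and all lists were chosen with earlier results of these data known. List members were matched by symbol or older symbol. All 10 genes are named. Of each pathway list, called members (up to 6) and the 2 uncalled ones with the smallest unadjusted p are named, and of marker lists the called ones. Because the table has a single comparison, no gene was named for a likeness of pattern. GENCODE M21 and the RefSeq tables are on GRCm38 and not mm9, and served for sequence alone. Alternatives were a stricter and a looser threshold, Bonferroni, adjustment over finite ratios, no adjustment, centring, and a filter on p. Of the planned macrophage markers, 1 is not reported here.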

Additional observations from a re-analysis of the deposited data

How the results depend on the processing

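The count of receptor genes and Myd88 past the threshold was 0 in the authors' adjustment, and also at an adjusted p under 0.01 or under Bonferroni. It became 3 at an adjusted p under 0.1, 4 with no adjustment, and 1 when Benjamini-Hochberg ran over the genes with a finite ratio alone, since fewer genes were then tested. That gene was Tlr8, whose adjusted p from the authors' DESeq values was then 0.0459. The count over all genes went from 2101 to 1145 at 0.01, to 2798 at 0.1, to 291 under Bonferroni and to 4147 unadjusted. Adjustment over the 15784 genes with a finite ratio alone gave 2214. The pathway's count of 11 went to 1 (Ripk3) at 0.01, 0 under Bonferroni, 19 at 0.1 and 30 unadjusted. These shifts follow from the thresholds. The median log2 fold of the 10 genes was 1.37, or 1.20 after centring on all genes, and no gene's direction turned. Among the 9 with an unadjusted p under 0.5 it was 1.75. Leaving out replicates, other normalizations and a filter on low counts were not run, since the table has no value per sample, and the deposited log2 column was not used because some of its cells are not numbers. No paired analysis was possible because the table has no value per sample.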

Other observations

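Receptors that share the TIR domain with the Toll-like receptors were also counted, as were sensors that share their ligands in the cytosol. Beside them, 5.72% of all genes with an adjusted p rose and 5.61% fell, and 55.9% of the finite ratios were above 1. Whether the counts differ from these shares was not tested. Of 6 interleukin 1 receptor family genes 0 passed in the authors' deposited table and 0 reached an unadjusted p of 0.05, with a median log2 fold of 1.03. Il1r1, the signalling receptor of interleukin 1, had 1.67 (adjusted p = 0.419), and Il1rl2, the interleukin 36 receptor, had 3.38 (0.646) in the authors' deposited table. Of 13 tested genes of cytosolic sensing 12 had a ratio above 1, 1 rose and 0 fell, with a median of 0.87 in the authors' deposited table. The one that rose was Nod1, a sensor of bacterial peptidoglycan fragments, at 1.93 (adjusted p = 0.0472 in the authors' deposited table). Nlrp3, of the inflammasome, had 1.94 (adjusted p = 0.121), and Zbp1, a sensor of Z-form nucleic acids, had 1.50 (0.225) in the authors' deposited table.

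A ratio about as large as that of Tlr5 was often not enough for a call. Of the 623 genes with a log2 fold of at least 3 and finite, 198 passed, or 31.8%, in the authors' deposited table. Over all genes with an adjusted p the share was 11.3%.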
